A study of Mus musculus with 3 samples.

Results

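Tandem 3' splice sites are pairs of acceptor sites that lie a few nucleotides apart at the start of the same exon. They were taken here from all alternative 3' splice site (A3SS) events that the splicing tables list for at least 1 pair of libraries, and kept where the exon made with the first site is longer by 12 nt or less than the exon made with the second. This gave 438 events in 389 genes, of 942 A3SS events and 8727 events of 5 types. In 315 of the 438 the sites were 3 nt apart, and these are described apart from the other 123. Because some exons are joined to more than 1 upstream exon, the 438 events hold 418 different pairs of sites, and events that share a pair are not independent.

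RNA-Seq of the hippocampus was done in 3 wild-type C57BL/6J mice, all male and labelled as 10 weeks old, with 1 mouse in each group. Each had received adeno-associated virus (AAV9) into CA1 of both dorsal hippocampi, carrying CTG repeats in the 3'-UTR of Egfp, and RNA was taken 10 days later. The CUG10 + vehicle mouse received 10 repeats and vehicle, the CUG300 + vehicle mouse 300 repeats and vehicle, and the CUG300 + CWG-cPIP mouse 300 repeats and CWG-cPIP, a cyclic pyrrole-imidazole polyamide that binds CAG/CTG repeat DNA. The repeat thus sits in a viral reporter gene and not in Dmpk, the gene that carries it in myotonic dystrophy type 1 (DM1). Where 3 values are given in a row below, they follow this order of the groups. No group has a replicate, so every interval below covers counting error in 1 library, and a test compares the reads of 2 libraries and not the conditions.

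As background, a 3' splice site usually ends in AG after a pyrimidine-rich stretch. U2AF reads that stretch and the AG, and the spliceosome joins the upstream exon to the base after an AG during the second step of splicing. Where the intron ends in the motif NAGNAG, with N any base, either AG can be used, and the choice adds or removes 3 nt, which in coding sequence keeps the frame. In DM1, CUG repeat RNA binds MBNL proteins and alters splicing of many exons. Each event is given here as the percent spliced in (PSI), the fraction from 0 to 1 of transcripts with the longer exon, which begins at the first of the 2 sites. The bases between the sites are called the extension.

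The sequences below show what the sites look like at the events on which the results turn. The first 4 are 3-nt events, and Nptn and Syt1 are the called events. Bases before the first site (intron) and after the second site (exon) are in lower case, the extension is in capitals, and all are read 5' to 3' from GENCODE M21 transcripts that run through the intron.
Tcf25 (chr8:123403127-123403156, + strand): atcctgcctcttcctttcagCAGctgtaag
Hnrnpc (chr14:52075406-52075435, − strand): cttgtccttctcatccccagTAGagatgaa
Fau (chr19:6058223-6058252, + strand): acaagcctttcttccttcagTAGccaacat
Cuedc2 (chr19:46332692-46332721, − strand): tctgtcttgtgtatcttcagAAGacccagc
Nptn (chr9:58650477-58650515, + strand): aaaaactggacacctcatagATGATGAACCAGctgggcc
Syt1 (chr10:108636658-108636693, − strand): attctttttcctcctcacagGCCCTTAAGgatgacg
In each of the 6 the intron ends in AG and the extension ends in AG again. The intron of Syt1 is pyrimidine-rich up to its last 3 bases, with 15 pyrimidines in the 17 bases before them, while Nptn has 7. The median over the 103 members with 20 intron bases in the transcripts was 13 of 17, and 7 was the lowest count, shared by 3 members.

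The letters of the extension were in the transcripts for 424 of the 438 events, and in 421 of these it ended in AG. Of 304 such 3-nt events, 229 (75.3%) had CAG as the extension, 38 (12.5%) AAG, 32 (10.5%) TAG and 3 (0.987%) GAG. The other 2 of the 304, in Celf4 and Eftud2, did not end in AG. The intron just before the first site was in the transcripts for 111 events, and in 107 of them it also ended in AG. At the 68 3-nt events among these, the first site followed CAG in 44, TAG in 16, AAG in 7 and TTG in 1. GENCODE M21 holds the long junction of 414 events, the short junction of 376, both of 358 and neither of 6.

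The 4 first sites without AG were those of Cnbp, Dgcr2, Nr2c2ap and Nsfl1c, which were singled out after their sequences were seen. Cnbp encodes a zinc-finger nucleic acid binding protein and carries the repeat whose expansion gives myotonic dystrophy type 2. Its first site follows TTG and its second AAG, and the intron begins with GT. Nr2c2ap has an intron that begins with AT and ends with AC at both sites, which is the terminal pair known from many introns of the minor (U12-type) spliceosome. Both are printed with the extension in capitals.
Cnbp (chr6:87845314-87845343, − strand): gcttcttttccttattgttgAAGcctgcta
Nr2c2ap (chr8:70133077-70133105, + strand): ccttgactgcaagaagtcacACcttctcc
The first site of Cnbp was used in all 3 libraries. Its PSI was 0.300 (95% interval 0.238 to 0.368, 62 of 201 counts) in CUG10 + vehicle, 0.332 (0.265 to 0.404, 63 of 185) in CUG300 + vehicle and 0.325 (0.243 to 0.415, 40 of 120) in CUG300 + CWG-cPIP, and the intervals of all 3 overlap. Nr2c2ap, which encodes a protein that associates with a nuclear receptor, had PSI values of 0.839, 0.713 and 0.637 in the same order, from only 19, 32 and 14 counts.

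Most extensions lay in coding sequence. Of the 438 events, 345 were placed in coding sequence, 73 in a 5' UTR and 11 in a 3' UTR by the annotated transcripts with the junction. In 278 the extension only added residues, in 18 it added residues and replaced 1, and in 3 it held a stop codon. In 38 the longer and shorter forms differed in reading frame, and which of them keeps the frame was not determined. In 8 the letters of the extension were not in the transcripts used. The other 9 events lay at junctions that GENCODE M21 does not hold (6) or that belong to no coding transcript (3). The stop codons were at Adamtsl5, Prrc2b and Uqcc1, where the shallowest library had 1 to 3 counts. Extensions that were no multiple of 3 made up 40 of 345 coding events (11.6%) and 30 of 84 UTR events (35.7%). Of the A3SS events with a longer shift, 257 of 504 (51%) were a multiple of 3. These shares describe the events listed and were not tested.

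**Figure D1:**
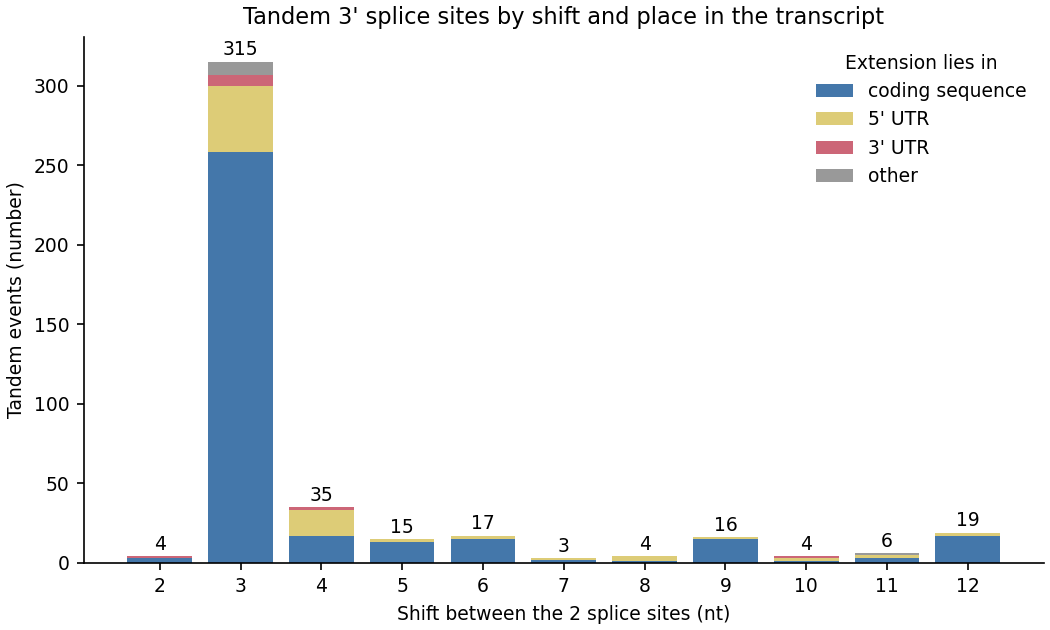
Number of tandem events (y axis) at each shift between the 2 sites in nt (x axis), with bars divided by where the extension lies in annotated transcripts. The 315 events of 3 nt stand above the 35 events of 4 nt and all other shifts, and the 5' UTR takes a larger part of the 4-nt bar than of the 3-nt bar.

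Depth set what could be read from these events. The tandem events held 9411 counts in CUG10 + vehicle, 6915 in CUG300 + vehicle and 9797 in CUG300 + CWG-cPIP, with a median of 8, 5 and 9 counts per event. At least 20 counts in each of the 3 libraries were reached by 59 events, 39 of 3 nt and 20 of other shifts. Cell type markers, summed over events with counts in all 3 libraries and given as CPM, which scales counts to a common library total, also moved between libraries. The 7 measured neuron markers of 10 summed to 15489, 6130 and 14898 CPM in the 3 libraries, and each of the 7 was lowest in CUG300 + vehicle. The 6 measured microglia and immune markers of 12 summed to 2835, 19940 and 4921 CPM, each highest in CUG300 + vehicle. The 2 measured choroid plexus markers of 5, Ttr and Enpp2, summed to 781, 71285 and 717 CPM. The 3 measured astrocyte markers of 8 summed to 663, 1464 and 1266 CPM, lowest in CUG10 + vehicle. Most of this sum was Gfap, with 518, 1402 and 961 CPM. The other 2, Fgfr3 (130, 48 and 273 CPM) and Slc4a4 (14.8, 14.1 and 32.1 CPM), were lowest in CUG300 + vehicle. The 5 measured oligodendrocyte markers of 10 summed to 10247, 8406 and 11037 CPM. Of these, 4 were lowest in CUG300 + vehicle, while Mag was highest there (1129, 1469 and 1065 CPM). The 1 measured endothelial and mural marker of 5 had 44, 28 and 52 CPM. None of these measured markers was at 0 in any library. In bulk tissue, fewer cells of a type and less RNA per cell cannot be told apart.

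At the 39 deeper 3-nt events the longer form was mostly the major one. The median PSI was 0.709 in CUG10 + vehicle, 0.782 in CUG300 + vehicle and 0.711 in CUG300 + CWG-cPIP, and 28 events had a PSI above 0.5 in all 3 libraries while 10 were below it in all 3. The minor form made up at least 0.1 of the transcripts in every library at 21 of the 39. The 20 events of other shifts had medians of 0.854, 0.873 and 0.870, with 15 above 0.5 and 4 below it in all 3 libraries, and 8 had a minor form of at least 0.1 throughout. The 8 events among the 59 whose shift is no multiple of 3 all had a PSI above 0.5 in every library, with medians of 0.967, 0.960 and 0.931.

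The letters before the second site went with different levels, as a description over few events. The 22 deeper 3-nt events with CAG as the extension had median PSI values of 0.693, 0.679 and 0.576 in the 3 libraries. The 11 with AAG had 0.882, 0.918 and 0.956, and the 5 with TAG had 0.653, 0.774 and 0.711. Levels were spread within each group, since PSI in CUG10 + vehicle ran from 0.059 to 0.969 over the CAG events and from 0.300 to 1.000 over the AAG events.

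**Figure D2:**
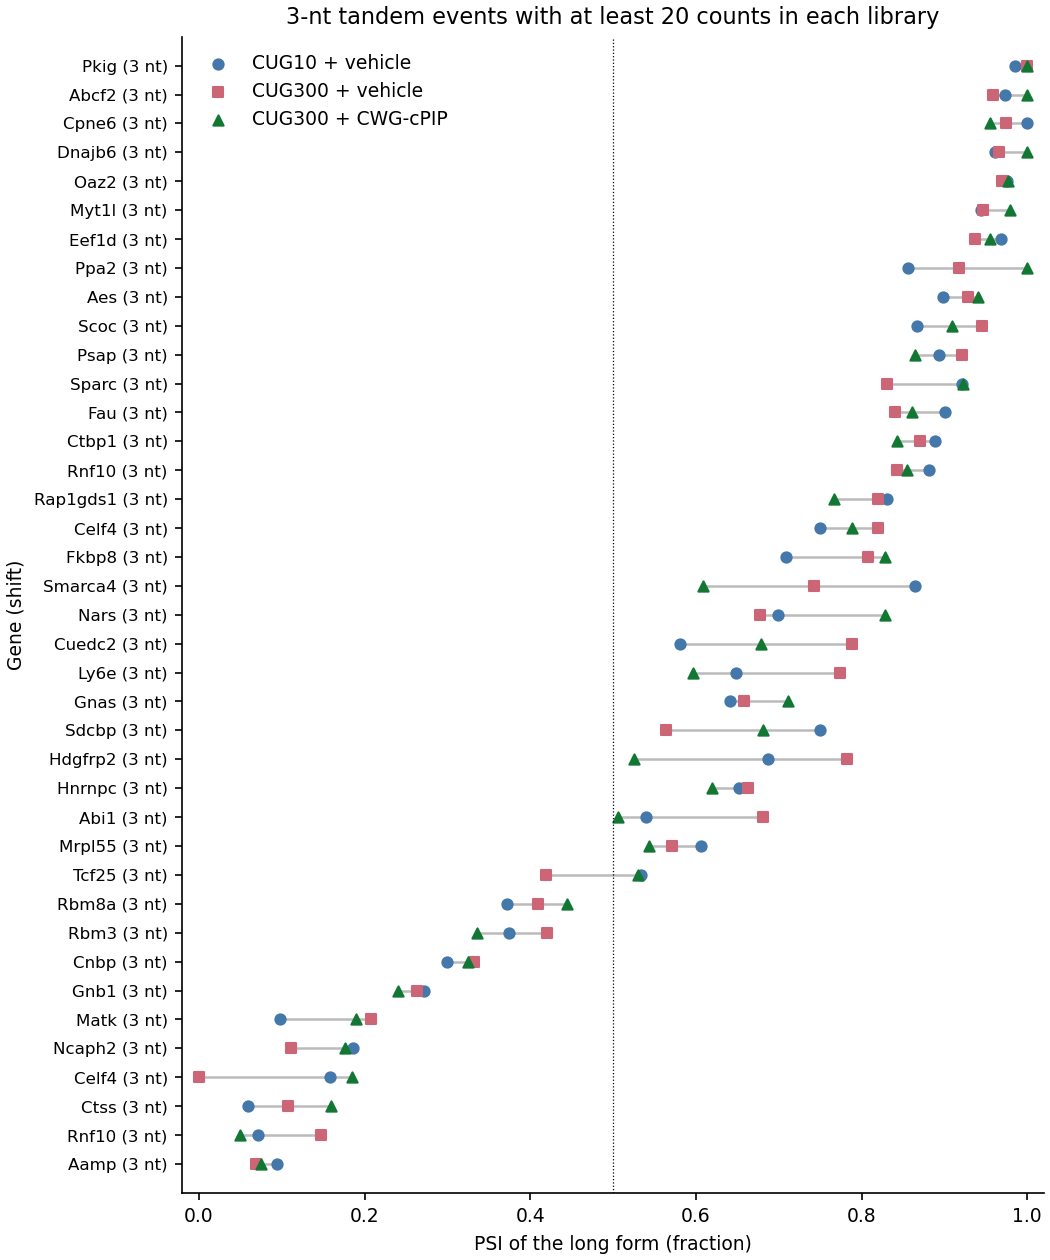
PSI (x axis, fraction of transcripts with the longer exon) of the 39 tandem events of 3 nt with at least 20 counts in each library, 1 row per event ordered by mean PSI, with 1 point per library and a grey line from the lowest to the highest. Levels run from near 0 in Aamp, Rnf10 and Ctss to near 1 in Pkig, Abcf2 and Cpne6, and the points of most genes lie close together.

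Several 3-nt sites were used almost one way. Pkig, an inhibitor of protein kinase A, had PSI values of 0.985, 1.000 and 1.000 in the 3 libraries, with only 1 read of the short form in the 3 libraries. Abcf2, an ABC protein of the subfamily without membrane domains, had 0.973, 0.958 and 1.000. Cpne6, a calcium-dependent copine of neurons, had 1.000, 0.975 and 0.956. At the other end, Aamp, an angio-associated migratory protein, had 0.094, 0.069 and 0.075. Ctss encodes cathepsin S, a lysosomal protease of microglia, and had 0.059 (0.016 to 0.145), 0.107 (0.070 to 0.156) and 0.159 (0.085 to 0.262). Its counts were 65, 216 and 73, so its CPM was 3.57-fold higher in CUG300 + vehicle than in CUG10 + vehicle, while its 3 PSI intervals overlap.

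Single genes carried sites of opposite habit. Rnf10, a RING finger protein, had a site with PSI 0.882, 0.842 and 0.855 and another with 0.072, 0.147 and 0.050 in the 3 libraries. Psap, the precursor of the saposins that activate lysosomal lipid hydrolases, had a 3-nt site at 0.893, 0.921 and 0.865 and a 6-nt site at 0.204, 0.120 and 0.176. The 3-nt site of Psap was the deepest of all members, with 428, 276 and 468 counts. In both genes the order of the 2 sites by PSI was the same in all 3 libraries.

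Where every library had 50 counts or more, the 4 events of 3 nt with a mean PSI nearest to 0.5 were in Tcf25, Rbm3, Sdcbp and Ly6e. Tcf25, a transcription factor that also acts in ribosome quality control, had 0.534 (0.443 to 0.624) in CUG10 + vehicle, 0.419 (0.289 to 0.558) in CUG300 + vehicle and 0.530 (0.447 to 0.612) in CUG300 + CWG-cPIP. Rbm3, the cold-inducible RNA-binding protein, had 0.374 (0.308 to 0.444), 0.420 (0.350 to 0.493) and 0.336 (0.267 to 0.410). Sdcbp (syntenin), a scaffold with PDZ domains, had 0.750, 0.564 and 0.682, and Ly6e is described with the comparisons. The intervals of Tcf25 overlap in all 3 libraries, and so do those of Rbm3.

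Fau, Gnb1 and Aes were among the 8 deepest events, with 1 event per gene. Fau, whose product is a ubiquitin-like protein fused to a ribosomal protein, has its extension TAG in the 5' UTR and had 0.901 (0.844 to 0.942), 0.840 (0.779 to 0.890) and 0.861 (0.804 to 0.906) in the 3 libraries. Gnb1, a G protein beta subunit, has its extension in a 3' UTR and had 0.272, 0.264 and 0.241. Aes, a transcriptional corepressor, had 0.899 (0.859 to 0.930), 0.928 (0.878 to 0.962) and 0.940 (0.907 to 0.964). The lowest and highest of the 3 libraries lay 0.060 apart for Fau, 0.031 for Gnb1 and 0.041 for Aes. Over the 39 events this range had a median of 0.070, and it was under 0.1 for 27 and above 0.15 for 8.

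The remaining deeper 3-nt events filled the range between these. Rbm8a (Y14), a core protein of the exon junction complex, had 0.372, 0.410 and 0.445, all with the shorter form as the major one. Matk, a kinase that phosphorylates Src family kinases, had 0.097, 0.208 and 0.189, and Ncaph2, a condensin II subunit, had 0.185, 0.111 and 0.176. Both forms were frequent in Abi1, an adaptor of the WAVE actin complex, with 0.539, 0.681 and 0.506, in Mrpl55, a mitochondrial ribosomal protein, with 0.606, 0.572 and 0.543, and in Gnas, the stimulatory G protein alpha subunit, with 0.641, 0.658 and 0.711. The asparaginyl-tRNA synthetase Nars had 0.699, 0.677 and 0.828, and the immunophilin Fkbp8 had 0.709, 0.808 and 0.828. The longer form exceeded 0.75 in every library in Rap1gds1, Ctbp1, Sparc, Scoc, Eef1d, Myt1l, Oaz2 and Dnajb6. No event in this group was called in any pair.

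Events of other shifts held both nearly fixed and mixed sites. Eif4a1, the RNA helicase of translation initiation, has an 11-nt extension that would shift the frame if skipped, and the short form had 1 read of 229 in CUG10 + vehicle and none of 311 and of 217 in the other libraries, where the lower limits of PSI were 0.986 and 0.981. Oaz1, the antizyme that controls ornithine decarboxylase, has a 6-nt extension and had 0.989, 0.996 and 0.994. Apod, a lipid-binding apolipoprotein, has a 4-nt extension in the 5' UTR and had 0.866 (0.785 to 0.924), 0.890 (0.837 to 0.930) and 0.884 (0.826 to 0.927). Pcbp2, an RNA-binding protein that favours C-rich sequence, has a 12-nt extension that adds 4 residues and had 0.424 (0.323 to 0.532), 0.285 (0.160 to 0.444) and 0.423 (0.326 to 0.525). Dhx15, a helicase that takes spliceosomes apart, has an 8-nt extension and had 0.952, 0.954 and 0.878 from 23 to 27 counts.

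Srrt, a protein of the cap-binding and small RNA pathways, has a 12-nt extension that adds 4 residues and replaces 1, and it had 0.831 (0.685 to 0.929), 0.700 (0.553 to 0.824) and 0.855 (0.713 to 0.944). The septin Sept8 had 0.665, 0.712 and 0.611 at a 6-nt site, and Dgcr6 had 0.416, 0.299 and 0.471 at a 9-nt site. Smarca4 carries a 9-nt site besides its 3-nt site, and the 9-nt site had 0.514 (0.340 to 0.688), 0.656 (0.423 to 0.847) and 0.364 (0.180 to 0.587) from 22 to 35 counts, with intervals that overlap. Its difference of -0.292 between CUG300 + CWG-cPIP and CUG300 + vehicle was the largest of the 57 tandem events of that pair with at least 20 counts in both libraries, and it did not pass the exact test (interval -0.522 to -0.001, adjusted p = 1). The remaining events of the 20, in Nsmf, Dynlrb1, Ngfrap1, Canx, St6galnac6 and Mrps36, had a PSI above 0.84 in every library.

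**Figure D3:**
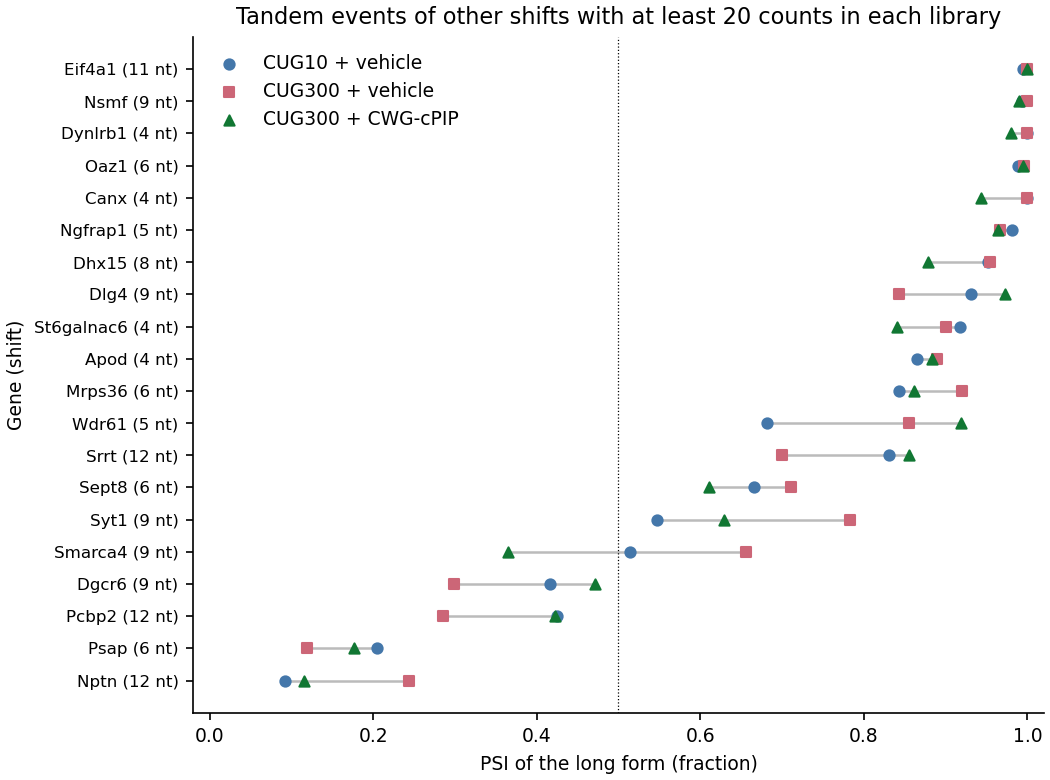
PSI (x axis) of the 20 tandem events with a shift other than 3 nt and at least 20 counts in each library, 1 row per event ordered by mean PSI, with 1 point per library. Eif4a1 and Oaz1 lie near 1 in all 3 libraries, while in Nptn and Syt1 the CUG300 + vehicle point lies to the right of the other 2.

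The first question was which sites were used differently with the expanded repeat, and it was put by setting CUG300 + vehicle against CUG10 + vehicle. An event was called where Fisher's exact test, two-sided and adjusted by Benjamini-Hochberg over all A3SS events of the pair, gave a p below 0.05 and PSI differed by more than 0.15. Over all A3SS events, 0.267% were called (2 of 750), and both were tandem events, Nptn and Syt1, of 348 tested. None of the 253 3-nt events was called, and a likelihood ratio test of the same counts called none either. An unadjusted exact p below 0.05 was found for 6 (2.37%) of the 253, beside 3.33% of all A3SS events.

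Nptn (ENSMUSG00000032336.17) encodes neuroplastin, a cell adhesion protein of the immunoglobulin superfamily at synapses. Its 12-nt extension at position 58650497 of chromosome 9 adds 4 residues. The longer form had a PSI of 0.092 (0.062 to 0.130, 29 of 275 counts) in CUG10 + vehicle, 0.244 (0.176 to 0.323, 36 of 132) in CUG300 + vehicle and 0.115 (0.081 to 0.158, 34 of 259) in CUG300 + CWG-cPIP. CUG300 + vehicle was the high library, and its interval overlaps neither of the other 2. The PSI difference between CUG300 + vehicle and CUG10 + vehicle was 0.152 (0.078 to 0.233; exact test, adjusted p = 0.021), just past the size needed for a call. Total counts at the site were 451, 233 and 462 CPM in the same order of libraries.

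Syt1 (ENSMUSG00000035864.14) encodes synaptotagmin 1, the calcium sensor of fast transmitter release. Its 9-nt extension at position 108636673 of chromosome 10 adds 3 residues. The longer form had a PSI of 0.547 (0.473 to 0.619, 111 of 193 counts) in CUG10 + vehicle, 0.783 (0.692 to 0.858, 89 of 111) in CUG300 + vehicle and 0.629 (0.543 to 0.709, 95 of 145) in CUG300 + CWG-cPIP. CUG300 + vehicle was again the high library, and its interval lies above that of CUG10 + vehicle and overlaps that of CUG300 + CWG-cPIP. The difference between CUG300 + vehicle and CUG10 + vehicle was 0.236 (0.124 to 0.335; exact test, adjusted p = 0.021). Counts at the site were 317, 196 and 259 CPM. Both Nptn and Syt1 are transcribed in neurons, and the neuron markers given above, among them Syt1 itself, summed lowest in CUG300 + vehicle. Whether that shift in the tissue has a part in either PSI was not tested.

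The next largest shifts of that pair, by the interval of the difference, did not pass the test. Celf4, an RNA-binding splicing regulator of neurons, had a 3-nt site with PSI 0.158 (9 of 55 counts), 0.000 (0 of 27, upper limit 0.123) and 0.185 (13 of 68) in the 3 libraries. Its difference between CUG300 + vehicle and CUG10 + vehicle was -0.158 (-0.275 to -0.018; exact test, adjusted p = 1). Another Celf4 site, whose extension did not end in AG, had 0.750, 0.820 and 0.788 in the same libraries. Further Celf4 events had 0.370, 0.490 and 0.306, with 10 counts in the shallowest library, and 0.138, 0.278 and 0.220, with 14. These further events share the same pair of sites and are not independent. At all of these other Celf4 events CUG300 + vehicle was the high library, and none was called. Cuedc2, a CUE domain protein that binds ubiquitin, has its extension in the 5' UTR and had 0.581 (0.447 to 0.706), 0.789 (0.638 to 0.898) and 0.679 (0.528 to 0.807). Sdcbp had a difference of -0.186 (-0.346 to -0.015) with CUG300 + vehicle the low library.

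**Figure D4:**
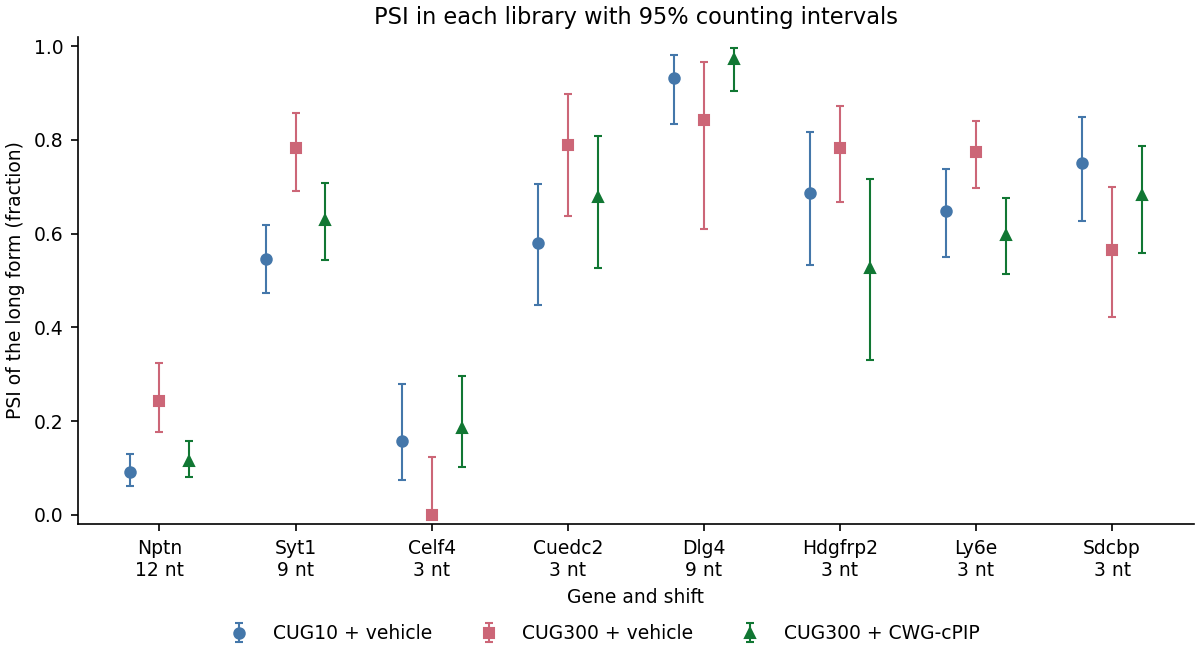
PSI (y axis) in the 3 libraries with 95% Clopper-Pearson intervals (bars) of Nptn, Syt1 and the 6 other genes with the clearest differences that involve CUG300 + vehicle and at least 20 counts in every library. The CUG300 + vehicle interval of Nptn (0.176 to 0.323) lies above those of the other 2 libraries, while most other intervals overlap.

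Across the 64 tandem events with at least 20 counts in both libraries of this pair, the median absolute PSI difference was 0.046, against 0.048 over all 197 A3SS events of that depth. A difference above 0.15, whatever its test, was found for 6 of the 64 (9.38%), 4 higher and 2 lower in CUG300 + vehicle, beside 12.7% of all A3SS events at this depth. Of the 64, 36 (56.2%, 95% interval 43.3 to 68.6) were higher in CUG300 + vehicle, against 52.3% (45.1 to 59.4) of all A3SS events. At 3 nt the median was 0.039 over 42 events, and at other shifts 0.057 over 22. Read against this background, the tandem events as a whole did not stand out by size.

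The second question was which sites were used differently with the polyamide, and it was put by setting CUG300 + CWG-cPIP against CUG300 + vehicle. No tandem event of 356 was called by the exact test, beside 0.13% of all 768 A3SS events. An unadjusted exact p below 0.05 was found for 14 (3.93%) of the 356, beside 5.08% of all A3SS events. A likelihood ratio test called no tandem event. Nptn had the smallest p, with a difference of -0.129 (-0.212 to -0.053; exact test, adjusted p = 0.104). For Ly6e, a GPI-anchored antigen of the Ly6 family that is induced by interferon, PSI was 0.648 (0.550 to 0.738, 71 of 108 counts) in CUG10 + vehicle, 0.774 (0.697 to 0.840, 114 of 146) in CUG300 + vehicle and 0.597 (0.515 to 0.675, 94 of 155) in CUG300 + CWG-cPIP. The interval of CUG300 + CWG-cPIP lies below that of CUG300 + vehicle, with a difference of -0.177 (-0.277 to -0.071; exact test, adjusted p = 0.129). Its extension is in the 5' UTR, and the end of the upstream exon, the extension in capitals and the start of the next exon read as follows in the longer mRNA.
Ly6e (chromosome 15, extension at 74957777 to 74957779): cttcacccggagTAGgcttctttgg
The microglia and immune markers were also highest in CUG300 + vehicle. They summed to 4921 CPM in CUG300 + CWG-cPIP and 2835 CPM in CUG10 + vehicle. The Ly6e PSI intervals of these 2 libraries overlap. Counts at the Ly6e site were 177, 257 and 276 CPM in the 3 libraries. Whether the make-up of the tissue has a part in this PSI was not tested.

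Syt1 differed by -0.154 (-0.261 to -0.038; exact test, adjusted p = 0.679) between CUG300 + CWG-cPIP and CUG300 + vehicle. Hdgfrp2, a chromatin-binding relative of hepatoma-derived growth factor, had 0.687 (32 of 46 counts), 0.782 (56 of 71) and 0.526 (15 of 28) in the 3 libraries. Dlg4 encodes PSD-95, the scaffold of excitatory synapses, and its 9-nt site had 0.931 (61 of 65), 0.843 (18 of 21) and 0.973 (80 of 82). Neither of these 2 was past the test, with adjusted exact p of 0.740 for Hdgfrp2 and 1 for Dlg4 between CUG300 + CWG-cPIP and CUG300 + vehicle. This pair shares the CUG300 + vehicle library with the first, so its differences are not independent of those given there.

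At 57 tandem events with at least 20 counts in both libraries of this pair, the median absolute difference was 0.056, equal to the 0.056 of all 194 A3SS events. Differences above 0.15 were found for 9 of the 57 (15.8%), 4 higher and 5 lower in CUG300 + CWG-cPIP, beside 20.1% of all A3SS events at this depth. Of the 57, 26 (45.6%, 32.4 to 59.3) were higher in CUG300 + CWG-cPIP, against 50.5% (43.3 to 57.8) of all A3SS events. The 3-nt events gave 20 of 38 (52.6%, 35.8 to 69.0) and the other shifts 6 of 19 (31.6%, 12.6 to 56.6), with intervals that overlap.

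In the remaining pair, CUG300 + CWG-cPIP against CUG10 + vehicle, no tandem event of 398 was called by the exact test. The share called over all 844 A3SS events was 0.237%. An unadjusted exact p below 0.05 was found for 9 (2.26%) of the 398, beside 3.55% of all A3SS events. A likelihood ratio test called 1 tandem event (Smurf1, from 10 and 5 counts). This pair does not hold the CUG300 + vehicle library, in which the neuron, immune and choroid plexus marker sums stand apart. Its libraries still differ in markers. The microglia and immune markers summed to 2835 CPM in CUG10 + vehicle and 4921 CPM in CUG300 + CWG-cPIP, with 5 of 6 higher in the latter. The astrocyte markers summed to 663 CPM in CUG10 + vehicle and 1266 CPM in CUG300 + CWG-cPIP, and all 3 measured were higher in the latter. Nptn differed by 0.023 (-0.026 to 0.073) and Syt1 by 0.082 (-0.026 to 0.186). The clearest intervals belonged to Acbd5, a peroxisomal acyl-CoA binding protein, with 0.794 (16 of 20 counts) in CUG10 + vehicle and 0.466 (10 of 21) in CUG300 + CWG-cPIP, and to Smarca4, the BRG1 ATPase of chromatin remodelling, whose 3-nt site had 0.865 (20 of 23) and 0.608 (21 of 34). Ppa2, the mitochondrial pyrophosphatase, had 0.856 (37 of 43) and 1.000 (33 of 33). Wdr61, a subunit of the PAF1 and SKI complexes, has a 5-nt extension, so its longer and shorter forms differ in reading frame. It had 0.682 (16 of 23) and 0.918 (24 of 26). All 4 had an adjusted exact p of 1.

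Over the 94 tandem events with at least 20 counts in both of these libraries the median absolute difference was 0.045, and 8 of 94 (8.51%) differed by more than 0.15, beside 0.060 and 15.7% over all 280 A3SS events of that depth. PSI was higher in CUG300 + CWG-cPIP for 46 (48.9%, 38.5 to 59.5) and lower for 48, against 51.6% (45.6 to 57.6) higher over all A3SS events.

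**Figure D5:**
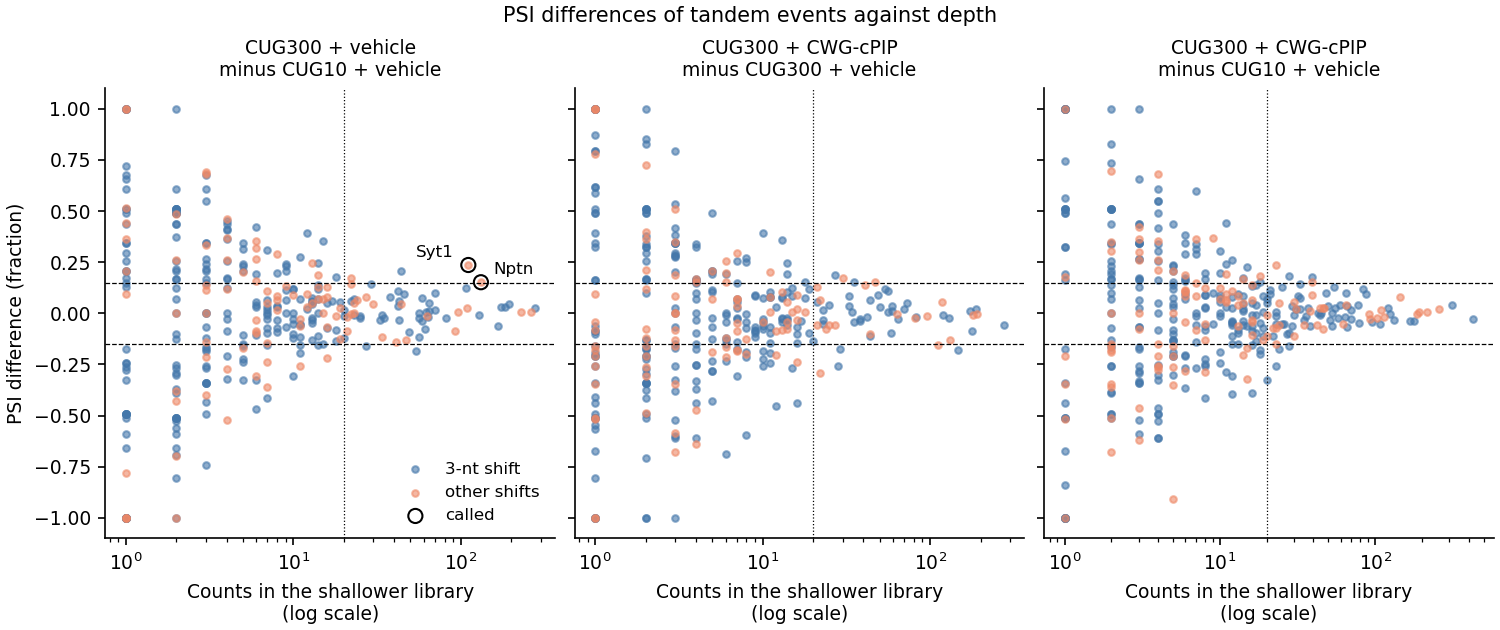
PSI difference (y axis) of every tandem event listed in a pair of libraries against the counts in the shallower library (x axis, log scale), with 3-nt shifts in blue and other shifts in orange. Dashed lines mark differences of 0.15, the dotted line marks 20 counts, and circles mark the 2 called events, Nptn and Syt1, which lie beyond 100 counts, while most differences beyond the dashed lines lie at few counts.

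Large differences were mostly found at few counts. Between CUG300 + vehicle and CUG10 + vehicle, 187 tandem events differed by more than 0.15 at any depth, and 137 of these (73.3%) had fewer than 5 counts in the shallower library. The same held for 144 of 199 (72.4%) between CUG300 + CWG-cPIP and CUG300 + vehicle and for 130 of 202 (64.4%) between CUG300 + CWG-cPIP and CUG10 + vehicle. At such depth the intervals span most of the scale, and differences were not detectable.

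Genes of 6 lists, chosen with earlier results of these data known, were looked up among the tandem events. The shares called over all A3SS events, 0.267%, 0.13% and 0.237% in the 3 pairs, are so low that no call in a list of 2 to 17 events says nothing about that list. The list of synaptic release and endocytosis had 2 of 44 genes with an event, and these were Nptn and Syt1, the called events already described. With 2 events, and Nptn a cell adhesion protein, the count is no result about release and endocytosis genes. Among 72 RNA-binding splicing regulators, 11 genes had 17 events, 14 of them of 3 nt, and 0 were called in any pair by the exact test, which at these background shares is not a result about the list. Besides Celf4 and Pcbp2, this list held Hnrnpc, an hnRNP protein that binds uridine-rich RNA, whose 3-nt site had 0.653 (0.524 to 0.767), 0.663 (0.539 to 0.772) and 0.619 (0.439 to 0.778) in the 3 libraries. The other genes of this list with events, Celf3, Elavl2, Ewsr1, Hnrnpr, Rbfox2, Rbfox3, Srsf10 and Syncrip, did not reach 20 counts in all 3 libraries at any event. Splice-site recognition and spliceosome genes had 2 events of 42 genes, in Dhx15 and Rnpc3, glutamate receptor and postsynaptic density genes had 2 of 35, in Dlg4 and Camk2b, and chromatin and transcription genes had 7 events in 6 of 45 genes. Of the ribosome and translation genes with any A3SS event, 4 of 11 had a tandem event, Eif4a1, Mrpl55, Mrps10 and Mrps36. These 4 lists, with 2 to 7 events each, also had no call in any pair.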

How the data were processed

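The libraries were made with a directional kit from hippocampal RNA. The submitters' processing notes name Trim Galore 0.6.6 for trimming, STAR 2.7.9a with RSEM 1.3.3 for alignment to mm10, and DESeq2 1.36.0. The authors ran DESeq2 on gene expression, which was not analysed here. The authors quantified splicing with rMATS for each pair of libraries. The deposited counts are reads supporting inclusion and skipping, from junctions and the alternative region, and the deposited PSI is a fraction after division by the effective form lengths in nt that the authors also deposited. The authors' p-values, false discovery rates and PSI differences were not used.

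From 15 tables, A3SS events were matched by gene and all coordinates; counts of a library in 2 tables were identical in 2013 of 2013 comparisons. The skipping form was 74 nt and the inclusion form longer by the shift, so PSI differs little from the raw share. The read length this implies differs from the one in the study's methods, which was not resolved. At 16 of the 3-nt events the first 3 exon bases repeat the extension, so a read that ends there has the same letters at either site. Counts were compared with Fisher's exact test, two-sided, with Benjamini-Hochberg adjustment over all A3SS events of a pair (750, 768 and 844). PSI intervals are 95% Clopper-Pearson, carried through the lengths, and intervals of differences are Newcombe's from Wilson intervals. There were no molecular identifiers, so intervals cover counting error only. Events were placed, and sequences read, with GENCODE M21 transcripts of the same build; coordinates are 1-based. Python 3.11.15, scipy 1.17.1, numpy 2.4.6 and pandas 2.3.3 were used, and the test was checked on simulated counts.

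The members, lists and tests were chosen with earlier results of these data known. Named are called events, the 6 clearest intervals of each pair at 20 counts or more, the 8 deepest events, the events nearest to a PSI of 0.5 (4 of 3 nt and 4 of other shifts, at 50 counts or more), events in lists 1 to 4 at 20 counts or more, and the 3 highest and 3 lowest PSI of 3-nt events. Other named genes and events fall outside this rule and were chosen after their values were seen. They are genes beside a sequence exception, a count or a list, the shallower Celf4 events, and other events with 20 counts in each library.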

Additional observations from a re-analysis of the deposited data

How the results depend on the processing

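The 2 calls between CUG300 + vehicle and CUG10 + vehicle, Nptn and Syt1, were also made with exact p-values adjusted over all 5 event types (0.026 and 0.029). They were also made with a likelihood ratio test (adjusted p = 0.015 for each) and with raw count shares, which reuse the exact p-values. A PSI difference of 0.10 and a minimum of 10 or 20 counts could not remove either call. Nptn had 132 and Syt1 111 counts in the shallower library, and both differed by more than 0.15. With a difference of 0.20 only 1 call was left, since Nptn differed by 0.152, and with 3-nt shifts only it was 0. Between CUG300 + CWG-cPIP and CUG10 + vehicle the likelihood ratio test made 1 call, Smurf1, from 10 and 5 counts (adjusted p = 0.046, against 0.281 by the exact test). The median absolute PSI difference fell with a deeper minimum, to 0.025 at 50 counts between CUG300 + CWG-cPIP and CUG300 + vehicle and to 0.033 between CUG300 + CWG-cPIP and CUG10 + vehicle, and it was 0.062 at 10 counts in the latter. Of 72 alternative values of the main results 66 were within 1.5 times a count or within the 95% interval of the main value. The 188 values of the events named by rule came from raw count shares and the likelihood ratio test alone, and kept their call. Their direction could not change, since raw shares rise with PSI and the likelihood ratio test was set beside the same PSI difference. Leaving out events whose extension the exon repeats, or those without both junctions in GENCODE M21, was added after seeing the data and changed no call. These settings kept the p-values as adjusted before, so they could only take calls away. Extensions as long as that of Nptn were not checked for a repeat. No paired analysis was possible because each group has 1 mouse. Depth limits all of this: in the shallowest library, 187 of 400 tandem events had fewer than 5 counts.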
